A study of Danio rerio with 12 samples.

Results

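Sarcomere and muscle-type transcripts were followed through 12 RNA-seq libraries of whole adult zebrafish kidney. The genes were chosen by symbol, as every row of the deposited count tables that starts with myl, myh, tnnt, tnni, tnnc, tpm, pvalb, ckm, myoz, casq, ryr or mybpc, plus acta1a, acta1b, actc1a, actc1b, tcap and acta2. This gave 85 of 14781 genes, of which 60 passed the filter on low counts and were tested, among 11840 tested genes in all. No measured value enters this rule. By the use each is best known for, the 85 fall into 35 fast skeletal, 10 slow skeletal, 12 cardiac, 5 smooth muscle, 7 non-muscle and 16 other genes. The last class holds symbols that the prefixes catch without a contractile role, such as the mylip ubiquitin ligases and the tpmt methyltransferases, and parvalbumins with no clear muscle type. It also holds the light chain gene myl2b and the troponin I gene tnni1al, neither of which was tested. By its RefSeq name, tnni4b.2, tnni1al would count as cardiac.

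There were 4 groups of 3 libraries each. The cebpd experiment had homozygous cebpd knockouts (cebpd KO) and their wild types (cebpd WT), and the CEN experiment had homozygous CEN knockouts (CEN KO) and their wild types (CEN WT). Cebpd is a transcription factor of the C/EBP family, and CEN is known from the study as an enhancer linked to cebpd, although the labels do not describe either lesion. In all 4 groups the fish were adult males of the EK strain, 4 to 12 months old, whose heart muscle cells had been ablated with 0.5 to 0.7 µM tamoxifen over 17 h. Their kidneys were collected at day 7. The transgene behind the ablation is not named in the labels, uninjured fish were not analysed here, and the labels do not say whether a library holds 1 fish. All p-values therefore measure the spread between these libraries, which may in part be technical.

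A sarcomere is built from thick filaments of myosin heavy and light chains, which pull on thin filaments of actin, tropomyosin and the troponin complex. Calcium released through ryanodine receptors binds troponin C and starts contraction, calsequestrin stores calcium, parvalbumins buffer it, and creatine kinases restore ATP. Fast, slow and heart muscle use separate genes for most of these parts. Smooth muscle and nearly all other cells contract without sarcomeres, through other actins, myosins and tropomyosins and no troponin. A kidney has smooth muscle in its vessels but no striated muscle of its own, while fish kidneys lie against the body wall under the trunk muscle.

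Gene counts ranged from 15793475 to 18104535 per library, so that 3 counts corresponded to 0.157 to 0.199 CPM, the counts relative to a library total scaled by TMM. Intervals and this floor cover counting error only. The knocked-out gene followed the labels: cebpd stood at 10.4, 4.03 and 12.9 CPM in cebpd KO against 316, 466 and 337 CPM in cebpd WT, and at 67.8, 72.8 and 77.9 CPM in CEN KO against 294, 333 and 212 CPM in CEN WT. Some libraries stood apart. CEN KO replicate 3 held 46% of the fast skeletal counts of all 12 libraries together and 20.1% of the slow ones. Cardiac counts did not set CEN KO replicate 3 apart: it held 11% of them, and CEN WT replicate 2 held more. CEN KO replicate 2 held 5341 CPM of the yolk protein gene vtg1 and had the highest level of 7 of 8 liver genes. CEN KO replicate 1 held 184 CPM of the egg coat gene zp2.1, although all fish are labelled male.

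Fast skeletal transcripts made up a small share of kidney RNA, and 1 library carried several times more of them than any other. The summed level of the 35 fast genes was 129.4, 49.6 and 72.6 CPM in cebpd KO and 190.1, 378 and 56.0 CPM in cebpd WT. It was 98.2, 283 and 1547 CPM in CEN KO and 206, 98.1 and 185 CPM in CEN WT. CEN KO replicate 3 thus lay 12.0-fold above the median of the other 11 libraries and 4.09-fold above the highest of them. As a share of all gene counts this was 0.155% in CEN KO replicate 3 (95% Wilson interval 0.153 to 0.157%), against 0.00509 to 0.036% in the other libraries. Group means were 83.9 ± 41.1 CPM in cebpd KO, 208 ± 162 CPM in cebpd WT, 643 ± 789 CPM in CEN KO and 163 ± 57.2 CPM in CEN WT (SD, n = 3 each). Without CEN KO replicate 3 the CEN KO mean was 190.6 CPM, and without cebpd WT replicate 2 the cebpd WT mean was 123.1 CPM. In both experiments the ranges of knockout and wild type overlapped.

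**Figure D1:**
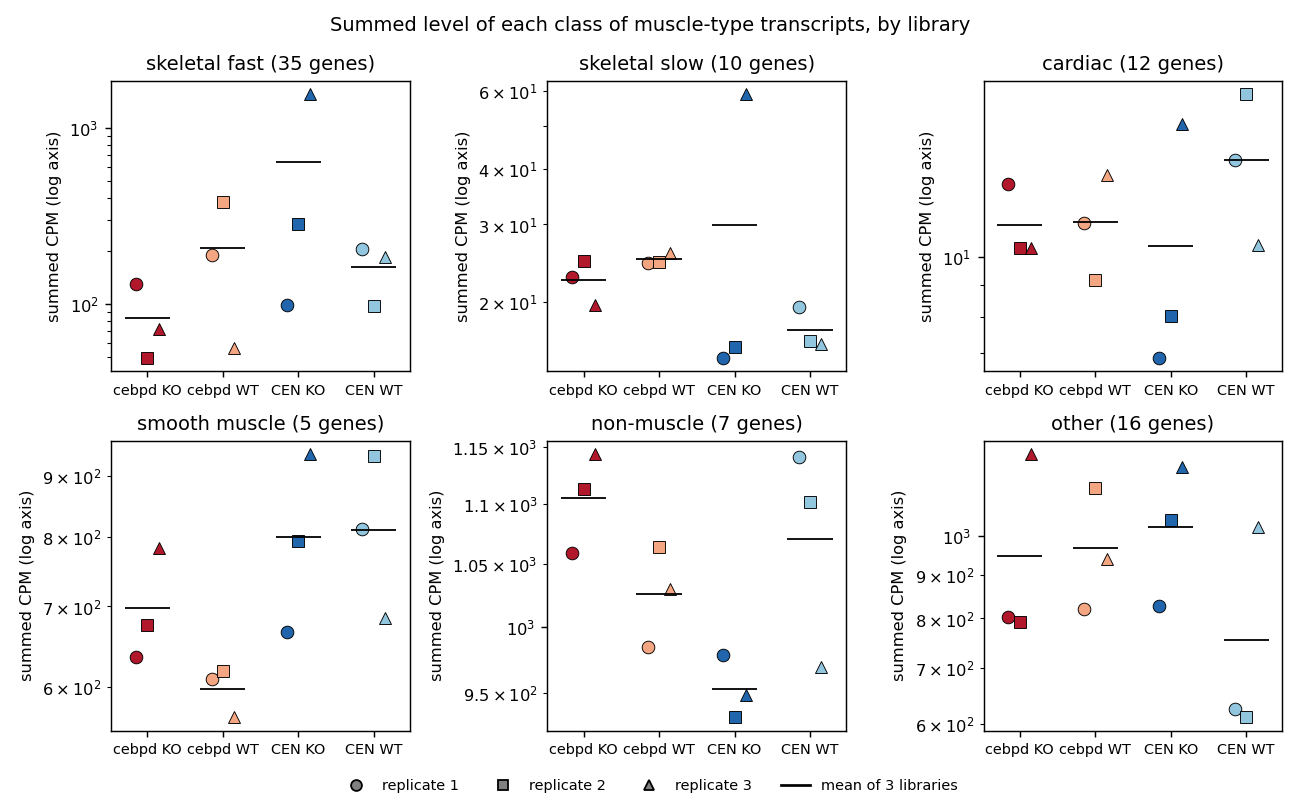
Summed CPM (log axis) of each class of genes in each library, with 1 point per library, shaped by replicate number, and a line at the mean of 3 libraries. CEN KO replicate 3 lies above all other libraries for the fast genes (1547 CPM) and the slow genes (59.13 CPM), while the smooth muscle sums (566 to 938 CPM) and non-muscle sums (932 to 1144 CPM) span narrow ranges.

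The slow skeletal genes showed the same library on top at a lower size. Their sum was 59.13 CPM in CEN KO replicate 3 and 15 to 25.8 CPM in the other 11 libraries. The 12 cardiac genes summed to 6.88 to 18.3 CPM, with the highest value in a CEN WT library and not in CEN KO replicate 3. The 5 smooth muscle genes summed to 566 to 938 CPM and the 7 non-muscle genes to 932 to 1144 CPM. Spread between libraries of a group followed these classes. The median biological coefficient of variation, the edgeR estimate of variation beyond counting noise, was 71.9% for tested fast genes, 53.1% for slow genes and 41.4% for cardiac genes, against 17.3% for smooth muscle genes, 16.6% for non-muscle genes and 20.6% for all genes tested. In whole-tissue RNA, a different number of muscle cells and a different amount of RNA per cell cannot be told apart.

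Genes of every part of the fast sarcomere were highest in CEN KO replicate 3. Of 25 tested fast genes 20 (80%) and of 7 tested slow genes 6 had their highest level there, against 10.5% of all genes tested. The slow genes myl13 and tnni1d reached 10 counts only in CEN WT replicates 1 and 2 and in CEN KO replicate 3. They had 58 and 40 counts in CEN KO replicate 3, and passed the filter on low counts only with its help. Among thick filament genes, the fast myosin heavy chain myhc4 had 12.0, 0.861 and 2.52 CPM in cebpd KO against 16.9, 35.5 and 0.975 CPM in cebpd WT. In CEN KO it had 5.49, 24.0 and 142 CPM, against 17.2, 3.14 and 16.5 CPM in CEN WT. The fast regulatory light chain mylpfa had 3.22, 14.3 and 98.5 CPM in CEN KO against 10.1, 3.19 and 6.67 CPM in CEN WT. In both genes CEN KO replicate 3 stood far above the other 11, and the remaining CEN KO libraries lay inside or near the range of the wild types.

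Thin filament genes gave the same picture. The alpha actin actc1b, which zebrafish trunk muscle uses in spite of its cardiac name, had 10.1, 39.7 and 263 CPM in CEN KO against 24.4, 7.95 and 23.6 CPM in CEN WT. It had 15.6, 1.51 and 4.98 CPM in cebpd KO against 14.7, 49.3 and 2.56 CPM in cebpd WT. The fast troponin T gene tnnt3b had 5.88, 17.0 and 79.2 CPM in CEN KO against 9.55, 6.64 and 8.71 CPM in CEN WT. Fast troponin I tnni2b.2 reached 52.5 CPM in CEN KO replicate 3, 19.0-fold above the median of the other libraries, fast troponin C tnnc2 80.9 CPM, 15.2-fold above it, and the alpha-tropomyosin tpma 33.4 CPM, 6.36-fold above it. Within cebpd KO and cebpd WT these genes also varied several-fold between libraries of the same group.

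Genes for calcium buffering and energy supply followed. The parvalbumin pvalb4 had 7.77, 26.7 and 202 CPM in CEN KO against 21.2, 7.32 and 18.4 CPM in CEN WT, and pvalb2 had 3.50, 13.4 and 85.3 CPM against 5.60, 3.03 and 9.67 CPM. The muscle creatine kinase ckmb had 8.65, 28.0 and 118 CPM in CEN KO against 18.6, 9.41 and 15.2 CPM in CEN WT. In the cebpd experiment ckmb had 5.93, 2.21 and 3.85 CPM in cebpd KO against 24.5, 28.8 and 2.5 CPM in cebpd WT, so that 1 cebpd WT library lay among the knockouts. The other creatine kinase gene ckma moved with it: the ratio of ckma to ckmb counts stayed between 0.616 and 1.24 in all 12 libraries.

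**Figure D2:**
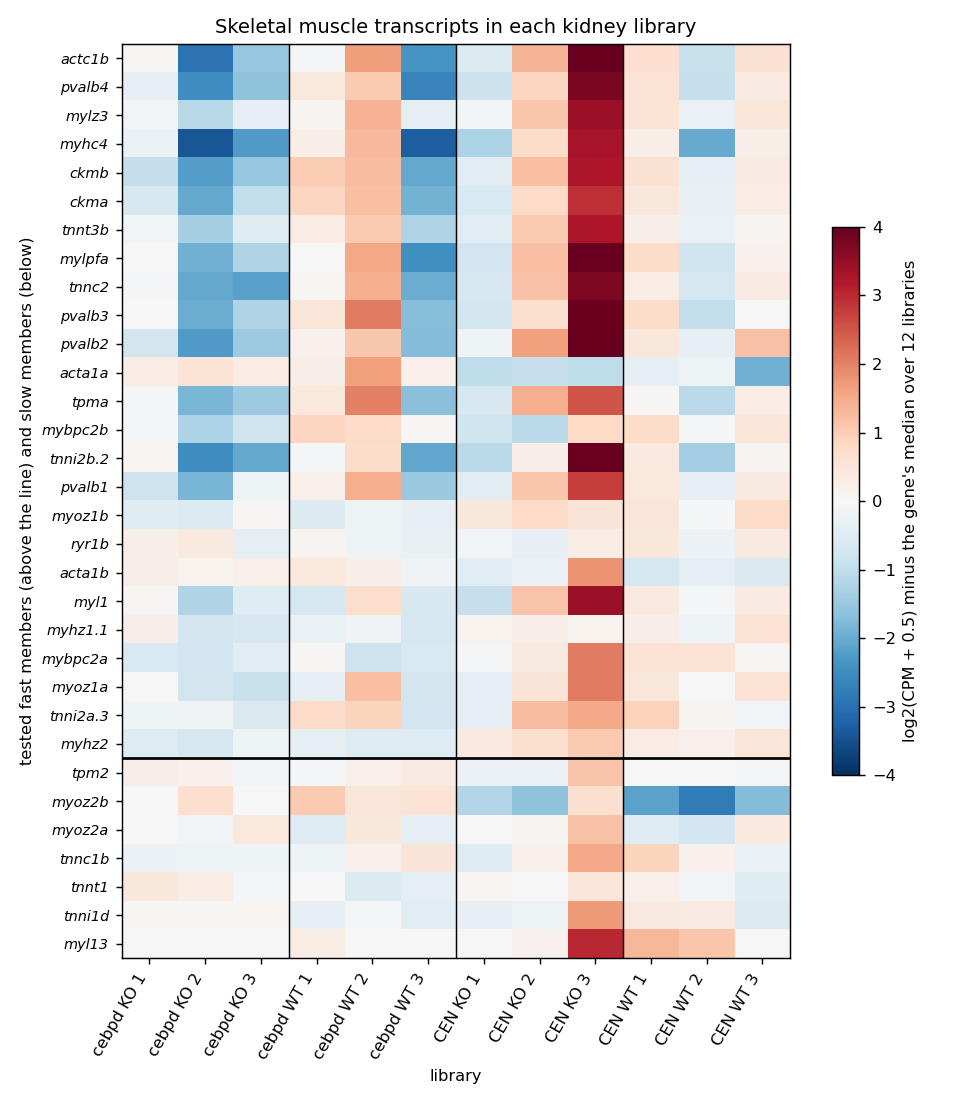
Level of each tested fast (above the line) and slow (below the line) gene in each library, as log2(CPM + 0.5) minus the gene's median over 12 libraries, with colours saturated at 4 in either direction. CEN KO replicate 3 is high for 20 of 25 fast genes, cebpd KO replicate 2 is the lowest library for 16 of them, and acta1a, mybpc2b, myoz1b, ryr1b and myhz1.1 follow another order.

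Library ranks were shared across most fast genes. Besides CEN KO replicate 3, where 24 of 25 tested fast genes lay above their own 12-library median, CEN WT replicate 1 had 23 above it, CEN WT replicate 3 and CEN KO replicate 2 had 21 each, and cebpd WT replicate 2 had 20. At the other end, cebpd WT replicate 3 had 2 above it, and cebpd KO replicates 2 and 3, CEN KO replicate 1 and CEN WT replicate 2 had 3 each. cebpd KO replicate 2 was the lowest library for 16 of the 25 genes. Each of the 4 groups thus had at least 1 library with few fast genes above their median. The libraries with the 3 highest fast sums, CEN KO replicates 3 and 2 and cebpd WT replicate 2, also had the 3 highest shares of reads in no gene, at 38.2, 37.4 and 38.5%, against 32.1 to 35.5% in the others. The part of this share in the fast sums was not tested.

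Of the 5 fast genes that were not highest in CEN KO replicate 3, the skeletal actin acta1a differed most. It had 4.49, 4.8 and 4.43 CPM in CEN KO, with no excess in replicate 3, against 7.19, 8.26 and 2.15 CPM in CEN WT. It had 11.8, 14.3 and 11.8 CPM in cebpd KO against 11.3, 31.1 and 11 CPM in cebpd WT. The ratio of acta1a to actc1b counts therefore ranged 562-fold over the libraries, from 0.0168 in CEN KO replicate 3 to 9.46 in cebpd KO replicate 2, where ckma to ckmb ranged 2.02-fold. The related acta1b behaved otherwise, with 1.11, 1.33 and 6.97 CPM in CEN KO against 0.824, 1.2 and 0.961 CPM in CEN WT. The calcium release channel ryr1b stayed between 2.26 and 4.28 CPM in all libraries, the heavy chain myhz1.1 between 0.914 and 3.0 CPM and the Z-disc protein gene myoz1b between 2.58 and 7.18 CPM. Reads of near-identical actins, heavy chains and parvalbumins may have been divided between copies or left uncounted, so values of single copies are less certain than their sums.

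The make-up of the fast counts shifted with their amount. Actins gave 17.7% of the fast counts in CEN KO replicate 3 and 14.4 to 35.6% in the 12 libraries, myosin light chains 16.1% and 10.1 to 18.5%, and troponins with tropomyosin 16.2% and 11.1 to 18.1%. Parvalbumins gave 25.1% there, the highest share of any library, where the lowest was 7.70%. The 8 fast genes outside the actins, myosins, thin filament proteins, parvalbumins and creatine kinases gave 2.92% there, the lowest share of any library, and 23.2% in cebpd WT replicate 3. These shares are of counts and are not corrected for gene length.

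**Figure D3:**
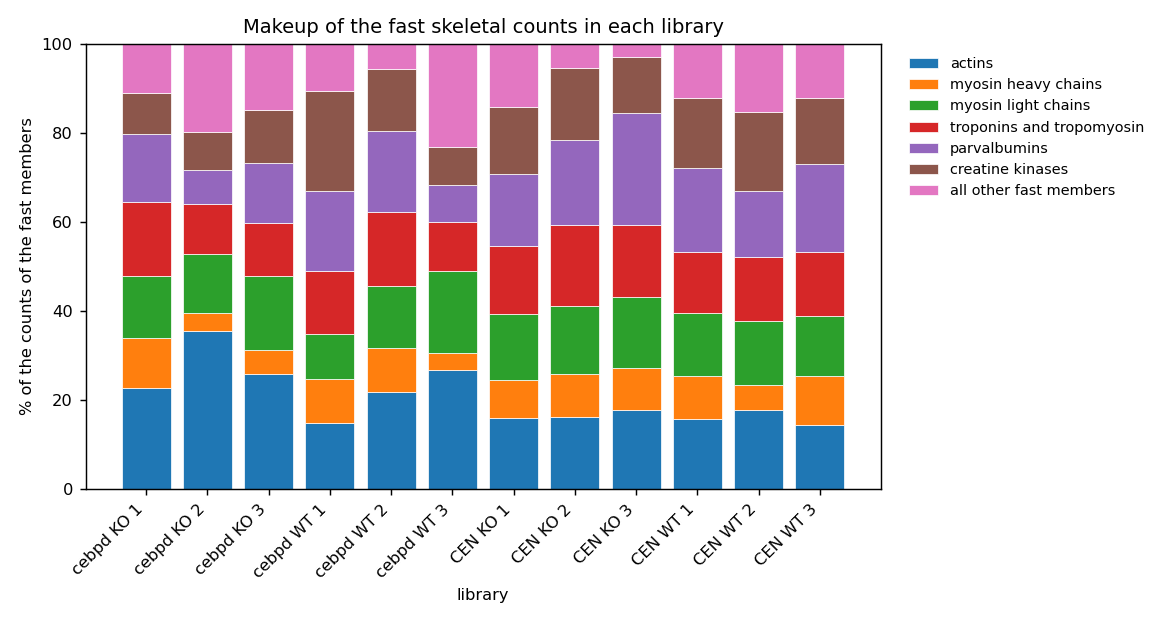
Share of the fast skeletal counts (%) taken by each family of genes in each library, as bars stacked to 100. Parvalbumins range between 7.70% and 25.1% and are highest in CEN KO replicate 3, and the remaining fast genes range between 2.92% and 23.2% and are lowest there.

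Genome neighbours among the members shared these patterns only in part. In the RefSeq gene order of assembly GRCz12tu, 19 members lie next to another member. pvalb1 and pvalb4 are neighbours and reached 22.5 and 202 CPM in CEN KO replicate 3, 9.16-fold and 17.8-fold above the median of the other libraries. The genes on either side of this pair, pvalb5 and pvalb8, had 0 and 6.19 CPM there. pvalb2 and pvalb3 are likewise neighbours, and in CEN KO replicate 3 lay 24.4-fold and 16.9-fold above that median, while the next gene, pvalb9, lay 1.43-fold above it. myhz2, next to myhc4, had 1.15 CPM in CEN KO replicate 3 and 0 to 0.753 CPM elsewhere.

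Among slow skeletal genes, the well counted beta-tropomyosin tpm2 and several genes at low counts were highest in CEN KO replicate 3. tpm2, part of the thin filament, had 502 counts there and 190 to 286 counts elsewhere. In CPM it had 11.3, 11.5 and 30.4 in CEN KO against 13.7, 13.4 and 13.0 in CEN WT. The slow myosin-binding protein gene mybpc1 had 7.94 CPM there and 0.0523 to 0.824 CPM elsewhere, and did not pass the filter for testing. myl13 had 3.52 CPM in CEN KO replicate 3 and 0 to 0.769 CPM elsewhere, with no count in 7 libraries. Slow troponin T tnnt1 had 0.666, 0.579 and 1.03 CPM in CEN KO against 0.769, 0.523 and 0.283 CPM in CEN WT, and its groups overlapped.

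Of the 85 members 25 were not tested, and 10 of these had their highest level in CEN KO replicate 3, among them the calcium store gene casq1a (5.28 CPM there, at most 1.08 CPM elsewhere), the titin cap gene tcap (6.85 CPM there, at most 0.659 CPM elsewhere) and the mitochondrial creatine kinase ckmt2b (5.03 CPM there, at most 0.659 CPM elsewhere). Another 4 of the 25, myl4, myl7, pvalb5 and tnni2a.1, had at most 3 counts in every library. The filter asks for about 10 counts in at least 3 libraries, and casq1a, tcap and ckmt2b reached 10 counts in 2.

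Several heart muscle genes were at or near 0, while 5 of the 12 cardiac genes had enough counts to be tested. The heart light chain myl7 had 0 to 0.111 CPM and cardiac troponin T tnnt2a 0 to 0.215 CPM. Of heart genes outside the members, the natriuretic peptide gene nppa had 0 to 0.247 CPM and the ventricular heavy chain vmhc 0 to 0.787 CPM. The list of 15 such genes summed to 247 CPM in CEN KO replicate 3 and 175 to 389 CPM elsewhere. Its most counted genes were atp2a2b, bag3 and atp2a2a. Of its 10 tested genes 4 were highest in CEN KO replicate 3, against 10.5% of all genes. atp2a2b and bag3 were lower in CEN WT than in cebpd WT (adjusted p under 0.05 by edgeR), as were 14.1% of all genes tested. Of the tested cardiac genes 4 had counts in every library: troponin C tnnc1a, at 1.33 to 4.38 CPM, the troponin I gene tnni1b, at 1.96 to 9.0 CPM, the atrial heavy chain myh6, at 0.305 to 2.42 CPM, and tnnt2e, at 0.926 to 3.05 CPM. The fifth, actc1a, had 5.34 CPM in CEN KO replicate 3 and 0 to 1.88 CPM elsewhere. Among those not tested, the myosin-binding protein gene mybpc3 had 4 to 8 counts in every library and the kinase gene mylk3 1 to 8.

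All 5 smooth muscle and all 7 non-muscle genes were tested, as were 11 of the 16 other genes, without ckmt2b, myl2b, pvalb5, tnni1al and tnni3k. Among smooth muscle genes acta2 ranged between 126 and 305 CPM over the 12 libraries, with its highest value in CEN KO replicate 3, myh11a between 137 and 233 CPM, and myl9a between 87.7 and 132 CPM. Among non-muscle genes, which build the contractile cortex of most cells, the light chains myl12.2 and myl6 ranged between 38.5 and 69.4 CPM and between 17.7 and 36 CPM, and the tropomyosin tpm4a between 60.7 and 109.7 CPM. Counts of the remaining class came mostly from the parvalbumins pvalb9, at 159 to 606 CPM, and pvalb6, at 206 to 506 CPM, and from the mitochondrial creatine kinase ckmt1, at 65.8 to 122 CPM. Neither pvalb9 nor pvalb6 was highest in CEN KO replicate 3, where they had 537 and 394 CPM, in contrast with pvalb1 to pvalb4. Of the 11 tested genes of this class 2 were highest there, the parvalbumin pvalb7 and the mitochondrial creatine kinase ckmt2a. pvalb7 had 26.0 CPM there and at most 11.5 CPM elsewhere, so the contrast does not hold for all parvalbumins of this class.

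Outside the members, other skeletal muscle genes pointed to the same library. Of 25 tested genes in a list of further skeletal muscle genes, 15 were highest in CEN KO replicate 3. The calcium pump atp2a1 had 0.499, 0.579 and 22.6 CPM in CEN KO against 2.2, 0.418 and 1.3 CPM in CEN WT, and the Z-disc genes actn3b and ldb3b reached 15.6 and 18.0 CPM there against at most 3.17 and 3.80 CPM elsewhere. The most counted genes of that list are not confined to muscle: the glycolysis genes gapdh and eno3 had 1887 and 887 CPM there, inside the range of the other libraries, and the myoglobin gene mb had 1038 CPM against 292 to 899 CPM. A list of 15 muscle precursor genes summed to 149.7 CPM there against 44.6 to 145.5 CPM elsewhere. Its counts came mostly from the transcription factor gene mef2d, at 84.7 CPM there and 13.7 to 76.9 CPM elsewhere, its relatives mef2ca and mef2cb, and the receptor kinase gene musk, at 15.2 CPM there and 7.68 to 21.8 CPM elsewhere. The acetylcholine receptor gene chrna1 had 7.22 CPM there and 2.98 to 8.16 CPM elsewhere. The defining precursor genes myod1 and myog were at or below 0.254 CPM and pax7a and pax7b at or below 0.333 CPM in every library. Of the 6 tested genes of this list, myf6 and chrna1 differed between CEN WT and cebpd WT (adjusted p under 0.05 by edgeR). Among all genes tested 25% did so. Of myf6 and chrna1, 1 was higher and 1 lower in CEN WT.

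Pancreas genes were also high in CEN KO replicate 3. Of 7 tested pancreas and gut genes 5 were highest there, with a summed level of 29.0 CPM against 5.54 to 27.2 CPM in the other libraries, and the trypsin gene prss59.2 had 4.73 CPM against 0 to 3.30 CPM. In all, 75 of 11840 genes were highest in CEN KO replicate 3 with at least 1 CPM and at least 4-fold above the median of the other 11 libraries. Of these 24 were members, 23 of them fast or slow skeletal genes, and 12 came from the lists of other muscle genes. Among the members, myl13, tnni1d and the cardiac gene actc1a passed the filter on low counts only with the help of CEN KO replicate 3. Lists of smooth muscle and pericyte genes (999 CPM in CEN KO replicate 3, 800.1 to 1227 CPM elsewhere) and of neutrophil genes (3566 CPM there, 3355 to 7487 CPM elsewhere) were within the range of the other libraries. So were those of distal tubule genes (4862 CPM there, 3315 to 5006 CPM elsewhere) and proximal tubule genes (9037 CPM there, 5372 to 10049 CPM elsewhere). By single genes, however, 5 of 8 tested distal tubule genes and 3 of 10 tested proximal tubule genes were highest there. The same held for 2 of 20 smooth muscle and pericyte genes and 0 of 8 neutrophil genes. The part of tissue carried along at dissection in the fast sums was not tested.

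In cebpd KO against cebpd WT no member passed the threshold, an adjusted p (Benjamini-Hochberg over all genes tested) of 0.05 by edgeR's quasi-likelihood test. Of 60 tested members 0 were called, where 0.0845% of all genes tested were. An unadjusted p under 0.05 was reached by 6 members, 10% of those tested, against 13.4% of all genes. That number was 2 of 63 (3.17%) without cebpd WT replicate 2, against 11% of all genes. It was 3 of 65 (4.62%) without cebpd WT replicate 1, against 8.92%, and 1 of 65 (1.54%) without cebpd KO replicate 2, against 11.4%. The order was reversed when the 6 cebpd libraries were fitted alone, at 8 of 52 members (15.4%) against 10.2%. Shares were close without cebpd KO replicate 1 (8 of 65, 12.3%, against 12%) and without CEN KO replicate 3 (8 of 60, 13.3%, against 12.8%). They were also close without cebpd WT replicate 3 (9 of 65, 13.8%, against 14.2%). The remaining alternatives kept the share of members below that of all genes. DESeq2, limma-voom and every other alternative also called 0 members. The groups did not overlap for 7 of 60 members (11.7%), against 16% of all genes. These were myh9a, myl12.1, mylipb, tnni1d and tpm1, with cebpd KO above cebpd WT, and mybpc2b and tnnc1b, with cebpd KO below.

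The tested fast genes had a median log2 fold change of -1.41 in this comparison, with 5 of 25 above 0, where the median over all genes was -0.01. Without cebpd WT replicate 2, the library with the most fast transcripts in this experiment, the median was -0.40. Leaving out any other single library put it between -1.96 and -1.05. Medians were -0.06 for slow, 0.01 for cardiac, 0.24 for smooth muscle, 0.02 for non-muscle and 0.12 for other genes. Of the fast genes, mybpc2b, a thick filament binding protein, was the one whose groups did not overlap: it had 5.93, 2.37 and 3.38 CPM in cebpd KO against 11.5, 10.9 and 6.46 CPM in cebpd WT. Its log2 fold change came to -1.31 ± 0.51 (SE, adjusted p 0.284 by edgeR). For ckmb the log2 fold change was -2.22 ± 0.92 (SE, adjusted p 0.317) and for tpma -1.99 ± 0.97 (SE, adjusted p 0.411), both with overlapping groups.

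Smaller differences without overlap were found among non-muscle and smooth muscle genes, and none passed either. The non-muscle myosin heavy chain myh9a had 224, 281 and 205 CPM in cebpd KO against 185, 175 and 169 CPM in cebpd WT, a log2 fold change of 0.42 ± 0.17 (SE, adjusted p 0.293 by edgeR). The tropomyosin tpm1 had 50.6, 69.2 and 84.5 CPM in cebpd KO against 36.5, 49.7 and 46.2 CPM in cebpd WT, a log2 fold change of 0.63 ± 0.26 (SE, adjusted p 0.317). mylipb, a ubiquitin ligase that in mammals degrades the LDL receptor, had 6.86, 5.32 and 6.5 CPM in cebpd KO against 3.88, 4.25 and 4.69 CPM in cebpd WT, a log2 fold change of 0.54 ± 0.18 (SE, adjusted p 0.207). Its paralog mylipa had a log2 fold change of 0.45 ± 0.21 (SE, adjusted p 0.391) and the parvalbumin pvalb8 one of 0.71 ± 0.30 (SE, adjusted p 0.328), both with overlapping groups. The smooth muscle actin acta2 had 186, 191 and 247 CPM in cebpd KO against 192, 150 and 136 CPM in cebpd WT, and the smooth muscle heavy chain myh11a had 187, 195 and 150 CPM against 158, 148 and 146 CPM.

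In CEN KO against CEN WT no member passed the threshold either. The count was 0 of 60 with edgeR, where 0.00845% of all genes tested, a single gene, passed. At an unadjusted p under 0.05 there were 11 members (18.3%), against 9.86% of all genes. Without CEN KO replicate 3 there were 3 (5%), against 6.6% of all genes, and without CEN WT replicate 2 there were 2 of 65 (3.08%), against 6.1%. Without CEN KO replicates 1 or 2 there were 28 and 21 of 65 (43.1% and 32.3%), against 11.4% and 8.27% of all genes. Leaving out CEN WT replicate 1 gave 7 of 62 (11.3%), against 6.34%. For cebpd WT replicate 3 it was 19 of 65 (29.2%), against 10.1%. limma-voom gave 5 of 60 (8.33%), against 8.99% of all genes, and the replicate block 8 of 60 (13.3%), against 13.8%. With only the 6 libraries of the experiment there were 11 of 60 (18.3%), against 14%. The DESeq2 Wald test gave 14 of 60 (23.3%), against 9.77%. edgeR with robust estimation gave 7 of 60 (11.7%), against 9.57%, and edgeR with no filter 18 of 85 (21.2%), against 9.52%. The groups did not overlap for 5 of 60 members (8.33%), against 19.4% of all genes. These were mylipa, myoz2b and tpmt.1, with CEN KO above CEN WT, and myh6 and myl12.1, with CEN KO below. The fast genes had a median log2 fold change of 1.83 with 21 of 25 above 0, and without CEN KO replicate 3 the median was 0.29 with 18 of 25 above 0. For slow genes the median was 1.04, and -0.23 without that library. Cardiac genes had a median of -0.40, and -0.94 without it. Medians of smooth muscle (-0.04), non-muscle (-0.19) and other genes (0.32) stayed closer to the value of 0.00 over all genes.

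**Figure D4:**
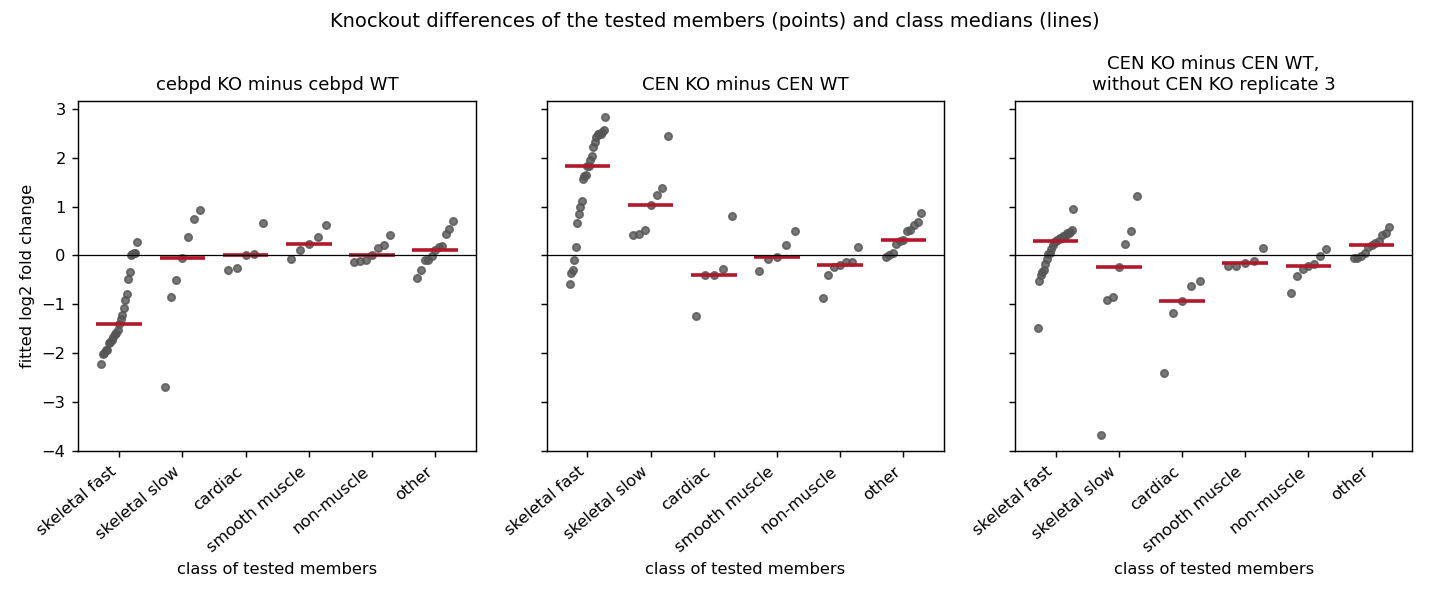
Fitted log2 fold change of each tested gene (points) and the median of each class (lines) for cebpd KO minus cebpd WT, for CEN KO minus CEN WT, and for the CEN comparison without CEN KO replicate 3. The fast median is -1.41 on the left, 1.83 in the middle and 0.29 on the right, and none of the genes plotted passes the threshold in the cebpd or CEN comparison.

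The fast genes of lowest p in the CEN comparison lost most of their difference without CEN KO replicate 3. mylz3, a fast essential light chain, had 11, 26.7 and 137 CPM in CEN KO against 17.7, 9.99 and 17.2 CPM in CEN WT. Its log2 fold change was 1.96 ± 0.76 (SE, adjusted p 0.406 by edgeR) with CEN KO replicate 3 and 0.33 without it. For tnnt3b it was 2.03 ± 0.79 (SE, adjusted p 0.41) with it and 0.46 without it, for pvalb2 2.48 ± 1.01 (SE, adjusted p 0.438) and 0.47, and for acta1b 1.64 ± 0.60 (SE, adjusted p 0.37) and 0.29. Not all fast genes did so. tpma went from 1.83 to 0.96, and ryr1b moved further from no change, from -0.30 to -0.52. So did mybpc2b, from -0.58 ± 0.50 to -1.49 ± 0.42 (SE, adjusted p 0.301 by edgeR without that library).

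The slow Z-disc gene myoz2b was the member of lowest p in this comparison. It had 1.66, 1.1 and 7.04 CPM in CEN KO against 0.604, 0.209 and 0.961 CPM in CEN WT, so every knockout library lay above every wild type. The log2 fold change was 2.46 ± 0.68 (SE, adjusted p 0.243 by edgeR), and 1.23 (adjusted p 0.659) without CEN KO replicate 3. The DESeq2 Wald test called it, with an adjusted p of 0.0141, as the only member among 137 called genes of 11840. Over all alternatives its adjusted p ranged from 0.0141 to 0.761.

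Members of other classes with low p in the CEN comparison had values as follows. The non-muscle tropomyosin tpm4b had 9.65, 6.31 and 6.06 CPM in CEN KO against 12.8, 20.4 and 7.41 CPM in CEN WT, a log2 fold change of -0.88 ± 0.34 (SE, adjusted p 0.404 by edgeR). The troponin I gene tnni1b had 2.16, 3.30 and 2.43 CPM in CEN KO against 6.42, 9.0 and 3.28 CPM in CEN WT, a log2 fold change of -1.24 ± 0.49 (SE, adjusted p 0.422). mylipa had 40.3, 51.1 and 48.9 CPM in CEN KO against 28.9, 33.4 and 37.6 CPM in CEN WT without overlap, a log2 fold change of 0.49 ± 0.21 (SE, adjusted p 0.471). The smooth muscle genes acta2 (137, 165 and 305 CPM in CEN KO against 186, 215 and 126 CPM in CEN WT) and myh11a (161, 174 and 137 CPM in CEN KO against 206, 233 and 149 CPM in CEN WT) overlapped between groups.

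The difference between the CEN and cebpd effects was tested directly, and no member passed. The count was 0 of 60 by edgeR, where 0.0422% of all genes passed. With DESeq2 it was 1 of 60, myoz2b, where 344 of 11840 genes passed. An unadjusted p under 0.05 was found for 19 members (31.7%) against 12.9% of all genes. This excess was lost without CEN KO replicate 3, with 4 members (6.67%) against 8.83% of all genes, and without cebpd WT replicate 2, with 4 members (6.35%) against 10.4%. It was also lost with limma-voom, with 3 members (5%) against 12.7%, and with the replicate block, with 7 members (11.7%) against 18.1%. Without cebpd KO replicate 2 there were 10 of 65 members (15.4%), against 11.1% of all genes. Without CEN WT replicate 2 there were 12 of 65 (18.5%), against 10.6%. The other alternatives kept an excess. Examples were 26 of 65 (40%) without CEN KO replicate 1, against 14.4%, and 16 of 65 (24.6%) without cebpd KO replicate 3, against 19.1%. With DESeq2 there were 20 of 60 (33.3%), against 13.6%. The median difference of log2 fold changes was 3.21 for the fast genes and 0.01 over all genes, and the fast median was 1.54 without CEN KO replicate 3 and 2.32 without cebpd WT replicate 2. For ckmb the difference was 4.06 ± 1.27 (SE, adjusted p 0.199 by edgeR), and 2.57 and 3.60 without these libraries in turn. For myoz2b it was 2.96 ± 0.89 (SE, adjusted p 0.186), and 1.73 and 3.06.

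The wild types of the experiments, CEN WT against cebpd WT, gave the only differences that edgeR called among the members. In all 11 of 60 (18.3%) passed by edgeR, 6 higher and 5 lower in CEN WT, where 25% of all genes tested passed, 10.9% higher and 14.1% lower, and for 15 of 60 (25%) the groups did not overlap, against 46.4% of all genes. The members' shares lay below those of all genes, a difference that was not tested, and wild-type stock, time and handling of the experiments cannot be told apart. Classes contributed 3 fast, 1 slow, 1 smooth muscle, 2 non-muscle and 4 other genes.

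Lower in CEN WT were 2 genes of the Z-disc and the thin filament of skeletal muscle. myoz2b had 0.604, 0.209 and 0.961 CPM in CEN WT against 9.67, 6.40 and 6.58 CPM in cebpd WT, a log2 fold change of -3.67 ± 0.69 (SE, adjusted p 0.00314 by edgeR). acta1a had 7.19, 8.26 and 2.15 CPM in CEN WT against 11.3, 31.1 and 11 CPM in cebpd WT, a log2 fold change of -1.60 ± 0.47 (SE, adjusted p 0.0272). The call on acta1a was lost without cebpd WT replicate 2, without CEN WT replicate 1 and without CEN WT replicate 3, where its log2 fold change was -0.93, -1.75 and -1.20. That of myoz2b was kept in every alternative. The 2 neighbouring thiopurine methyltransferase genes, drug-metabolizing enzymes with no part in the sarcomere, were also lower: tpmt.2 with 6.75, 6.59 and 9.33 CPM in CEN WT against 14.2, 17.9 and 23.6 CPM in cebpd WT (log2 fold change -1.30 ± 0.27, adjusted p 0.00605), and tpmt.1 with 32.9, 27.1 and 33.5 CPM in CEN WT against 37.6, 51.8 and 64.9 CPM in cebpd WT (log2 fold change -0.72 ± 0.21, adjusted p 0.0253). The non-muscle tropomyosin tpm3 had 228, 249 and 208 CPM in CEN WT against 298, 351 and 322 CPM in cebpd WT, a log2 fold change of -0.50 ± 0.12 (SE, adjusted p 0.0125).

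Higher in CEN WT were both a smooth muscle and a non-muscle light chain. myl9b, a regulatory light chain of smooth muscle, had 250.2, 327 and 264 CPM in CEN WT against 135, 177 and 136 CPM in cebpd WT, a log2 fold change of 0.91 ± 0.18 (SE, adjusted p 0.00431 by edgeR). Its paralog myl9a had 122, 124 and 107 CPM in CEN WT against 87.7, 94.3 and 102 CPM in cebpd WT and was not called. The non-muscle regulatory light chain myl12.1 had 486, 440.1 and 422 CPM in CEN WT against 317, 349 and 349 CPM in cebpd WT, a log2 fold change of 0.41 ± 0.11 (SE, adjusted p 0.0197). mylipb had 8.73, 8.21 and 10.8 CPM in CEN WT against 3.88, 4.25 and 4.69 CPM in cebpd WT, a log2 fold change of 1.11 ± 0.18 (SE, adjusted p 0.0016).

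The parvalbumin pvalb8 had 5.82, 3.87 and 4.18 CPM in CEN WT against 1.86, 2.03 and 2.44 CPM in cebpd WT, a log2 fold change of 1.13 ± 0.30 (SE, adjusted p 0.0176). The Z-disc gene myoz1b had 5.76, 3.82 and 7.12 CPM in CEN WT against 2.59, 3.42 and 3.11 CPM in cebpd WT, a log2 fold change of 0.87 ± 0.28 (SE, adjusted p 0.0373). The fast heavy chain myhz2 passed with an adjusted p of 0.0225 on few counts, 9, 8 and 11 in CEN WT against 2, 1 and 1 in cebpd WT, a ratio of summed counts per library size of 6.36 (exact 95% interval 2.22 to 24.9, counting error only). With 0 to 3 counts in the cebpd libraries and 8 to 19 in the CEN libraries, myhz2 passed the filter on low counts only through the CEN experiment, where it is high. mylipb, myoz2b, myl9b and tpmt.2 kept their calls in every alternative tried, and the other 7 lost theirs when single libraries were left out.

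Besides acta1a, these losses were as follows. The call on tpm3 was lost without CEN WT replicate 1 (adjusted p 0.051 by edgeR), and that on myl12.1 without CEN WT replicate 1 or cebpd WT replicate 1 (highest adjusted p 0.0744). pvalb8 lost its call without CEN WT replicate 1 or cebpd WT replicates 1 or 2 (highest adjusted p 0.0773), and myhz2 without CEN WT replicates 1 or 3 or cebpd WT replicates 2 or 3 (highest adjusted p 0.0772). tpmt.1 lost it without any 1 of the CEN WT libraries or cebpd WT replicates 2 or 3 (highest adjusted p 0.109). myoz1b lost it without CEN WT replicates 1 or 3, CEN KO replicate 3 or any 1 of the cebpd WT libraries (highest adjusted p 0.147). Directions stayed as they were throughout. The number of called members was 4 of 62 without CEN WT replicate 1, where 1630 of all 12013 genes tested were called. It was 6 of 63 without cebpd WT replicate 2, where 2242 of 12032 were called. In the main test it was 11 of 60, where 2961 of 11840 were called.

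**Figure D5:**
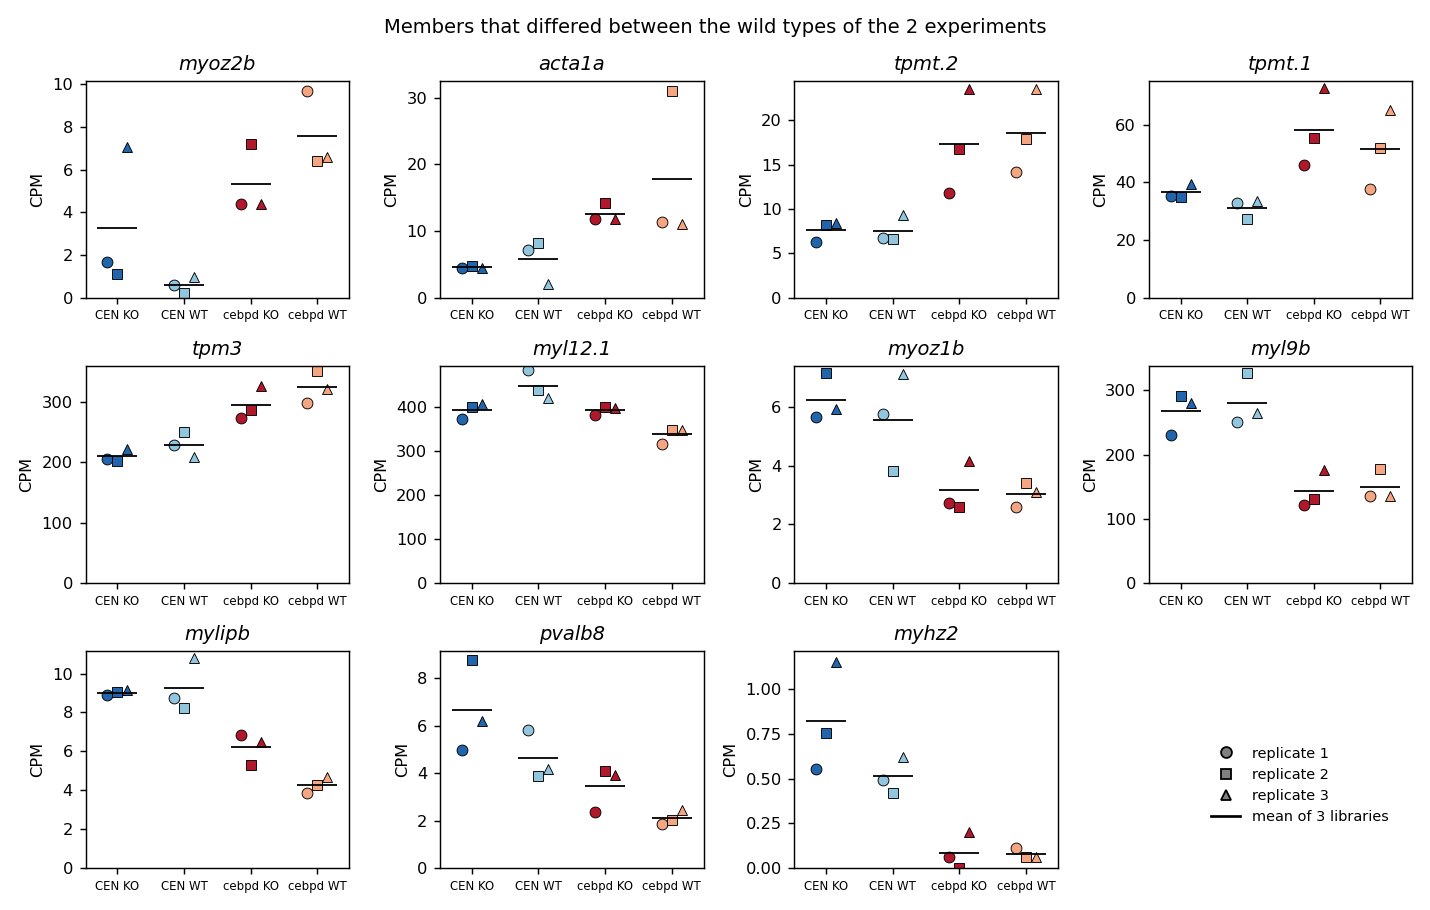
CPM in each library of the 11 genes that differed between CEN WT and cebpd WT, with 1 point per library, shaped by replicate number, and a line at the mean of 3 libraries. For tpmt.2, tpm3, acta1a, myl9b, mylipb and myhz2 the 6 libraries of one experiment lie apart from the 6 of the other, while for myoz2b CEN KO replicate 3 (7.04 CPM) lies within the range of the cebpd experiment. The share of all genes set apart in this way was not counted.

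The knockouts of the experiments stood in the same order for most of these 11 genes, without a test of their own. How often this holds among all genes that differed between the wild types was not counted. tpmt.2 had 6.27, 8.22 and 8.43 CPM in CEN KO and 11.8, 16.7 and 23.5 CPM in cebpd KO, and acta1a had 4.49, 4.8 and 4.43 CPM in CEN KO and 11.8, 14.3 and 11.8 CPM in cebpd KO. myl9b had 230.1, 291 and 281 CPM in CEN KO and 122, 131 and 176 CPM in cebpd KO, and tpm3 had 205, 202 and 221 CPM in CEN KO and 274, 286 and 326 CPM in cebpd KO. For myl12.1 the knockout groups overlapped, with 372, 402 and 408 CPM in CEN KO and 383, 400.2 and 399.5 CPM in cebpd KO.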

How the data were processed

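For each of 12 libraries the authors deposited raw, unnormalized read counts by gene symbol. The submitters' processing notes name the build danRer10 and the tools HTSeq 1.6.1, TopHat2 2.1.1 and Trim Galore 0.6.4. Roles, annotation and strand setting were not given in the sources at hand. Reads of a gene and an antisense partner therefore cannot be told apart, and near-identical paralogs may share or lose reads. The 5 summary lines of each table, 32.1 to 38.5% of reads in no gene and 1.32 to 3.99% ambiguous, entered neither library sizes nor tests.

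The software was edgeR 4.0.16, DESeq2 1.42.0 and limma 3.58.1 under R 4.3.3. Genes kept by filterByExpr (minimum count 10) numbered 11840. TMM factors were 0.835 to 1.1, and CPM values use them. Genes were tested by quasi-likelihood in edgeR, in a model of 4 group means over 12 libraries, with Benjamini-Hochberg adjustment over all genes tested and a threshold of 0.05. The test was checked on simulated counts. Alternatives were DESeq2 size factors, no filter, the DESeq2 Wald test, limma-voom, only the 6 libraries of an experiment, a replicate block and leaving out each library. For class sums they were DESeq2 size factors, library size alone and leaving out each library. edgeR with robust estimation was added after seeing the data. The members, classes and gene lists were chosen with earlier results of these data known, so no p is given over a class or list.

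Named genes were, for each comparison, all members past the threshold and, for each knockout comparison, the 8 of lowest p. They also include the 6 members of each class with the most counts and the 3 most counted genes of each list, as far as results turn on them. Other genes were named after their values were seen. All 85 members were matched to RefSeq names, 82 by symbol and 3 by a synonym, and that table (assembly GRCz12tu) served for gene order only.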

Additional observations from a re-analysis of the deposited data

Results flagged for a closer look

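For myl12.1, which encodes a regulatory light chain of non-muscle myosin, the knockout difference had opposite signs in the experiments. It had 383, 400.2 and 399.5 CPM in cebpd KO, all above the 317, 349 and 349 CPM in cebpd WT, and 372, 402 and 408 CPM in CEN KO, all below the 486, 440.1 and 422 CPM in CEN WT. The CEN effect minus the cebpd effect was -0.41 ± 0.16 on the log2 scale (SE), and this difference did not pass the threshold (adjusted p 0.292, edgeR). Neither effect passed by itself (adjusted p 0.427 for cebpd and 0.614 for CEN, edgeR). Groups without overlap were found for 16% of all genes in the cebpd comparison and 19.4% in the CEN comparison. The wild types differed between the experiments, while the knockout groups overlapped.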

How the results depend on the processing

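Among the members named for passing the threshold or for low p, none changed sign in any alternative. Some class medians did. The slow median for CEN KO against CEN WT went from 1.04 to -0.23 without CEN KO replicate 3. The cardiac median for cebpd KO against cebpd WT went from 0.01 to -0.33 without cebpd WT replicate 3. Genes called for cebpd KO against cebpd WT numbered 10 in the main test, 410 with DESeq2, 1 with only the 6 libraries of the experiment, 197 with the replicate block and 1 to 233 when leaving out single libraries (233 without cebpd KO replicate 3). For CEN KO against CEN WT they numbered 1, 137 with DESeq2, 5 with limma-voom, 2 with only 6 libraries, 11 with the replicate block and 1 to 7 when leaving out single libraries. For the difference of effects they numbered 5, 344 with DESeq2, 8 with limma-voom, 129 with the replicate block and 0 to 48 when leaving out single libraries, and for CEN WT against cebpd WT 2961 and 1630 to 4013. Members called numbered 1 with DESeq2, myoz2b, in the CEN comparison and 1, also myoz2b, in the difference of effects, and in the wild types 4 to 11 when leaving out single libraries. The fast median for CEN KO against CEN WT was 1.83, and 0.29 to 2.33 when leaving out single libraries, with the lowest value without CEN KO replicate 3. The cause of these changes was not tested.

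Replicate numbers paired the libraries only in part. Correlations of same-numbered deviations were 0.302, -0.01 and 0.367 in the cebpd experiment and 0.195, -0.02 and 0.164 in the CEN experiment. cebpd KO replicate 2 correlated best with cebpd WT replicate 1 (0.335) and CEN KO replicate 2 with CEN WT replicate 3 (0.0359). The other knockout libraries correlated best with the wild type of their own number. With the replicate block 0, 0, 0 and 11 members were called in the 4 comparisons, as without it. For genes with at most 3 counts in a library, such as myhz2, depth limits what can be seen, and 3 libraries per group limit the rest.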
